A study of Mus musculus with 12 samples.

Results

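The CC chemokines *Ccl2*, *Ccl3*, *Ccl4*, *Ccl5*, *Ccl7*, *Ccl8* and *Ccl11* and the receptors *Ccr1* and *Ccr2* were examined in RNA-seq libraries of mouse scars. These 9 genes were taken by symbol from the 35976 genes in the count files, and all 9 were among the 18853 genes that passed the filter on low counts. Scars of male mice 8 to 12 weeks old were sequenced, with 3 mice in each of 4 groups. The scar model was set up in C57BL/6J mice, to which the line lacking *Tem1* had been backcrossed for 10 generations. Tem1WT/WT mice carry the intact *Tem1* gene, which is listed in the files under its symbol *Cd248*. In Tem1lacZ/lacZ mice lacZ stands in place of the only exon of *Tem1*, so that the gene is missing from every cell type and not from fibroblasts alone. A 1.5-cm incision was made in the back skin of all mice, and a device was fixed over it 6 days later. Traction scars (WTTR and lacZTR) came from mice whose device was lengthened by 1 mm/day until 8 mm had been reached. Sham scars (WTSH and lacZSH) came from mice that wore the device at a fixed length. One part of each scar gave the RNA, so every library mixes keratinocytes, fibroblasts, vessels and leukocytes, and fewer cells of a type cannot be told apart from less RNA per cell. The comparisons ask whether stretching a scar changes the chemokines that draw leukocytes into it, and whether this differs in the absence of *Tem1*.

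CC chemokines are small secreted proteins named for a pair of adjacent cysteines near their amino terminus. They bind G protein-coupled receptors and set up gradients along which leukocytes enter tissue. *Ccl2* and *Ccl7* encode the monocyte chemoattractants that act on CCR2, the receptor by which inflammatory monocytes leave the bone marrow and enter wounds. *Ccl3*, *Ccl4* and *Ccl5* encode ligands that activated macrophages, neutrophils and lymphocytes make, and CCL3 and CCL5 act on CCR1. *Ccl11* encodes eotaxin, a fibroblast and macrophage product that draws eosinophils through CCR3, and mouse CCL8 acts mainly through CCR8. *Ccr1* is carried by neutrophils, monocytes and macrophages.

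The cysteine pair that gives the family its name lies in the second of 3 exons in each ligand. The 36 coding bases around it are shown for 6 of the ligands to let them be compared, 5′ to 3′ on the strand of the gene, from the GENCODE vM21 annotation of GRCm38, with both cysteine codons in capitals.
*Ccl2*: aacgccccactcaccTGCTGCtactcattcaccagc
*Ccl7*: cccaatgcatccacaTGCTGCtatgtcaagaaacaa
*Ccl8*: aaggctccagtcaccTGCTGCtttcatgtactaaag
*Ccl11*: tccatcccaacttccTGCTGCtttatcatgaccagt
*Ccl4*: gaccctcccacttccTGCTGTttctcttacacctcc
*Ccl5*: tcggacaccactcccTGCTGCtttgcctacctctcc
Of these ligands 5 use the same pair of codons, and *Ccl4* has a different second codon. The transcripts of *Ccl2* and *Ccl7* share an exact run of 23 bases, the longest between any pair of the 7 ligands, whereas reads were 150 bases long.

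In RefSeq coordinates of GRCm38.p6, *Ccl2* (chr11:82035577-82037452), *Ccl7* (chr11:82045712-82047525), *Ccl11* (chr11:82057832-82062955) and *Ccl8* (chr11:82115185-82116799) lie in this order on the plus strand. A CC ligand gene outside the 9 lies between *Ccl11* and *Ccl8*. *Ccl5* (chr11:83525778-83530518) and *Ccl3* (chr11:83647843-83649378) lie on the minus strand of the same chromosome, and *Ccl4* (chr11:83648624-83664683) on its plus strand. The receptor genes lie on chromosome 9, *Ccr1* on the minus strand (chr9:123962126-123968692) and *Ccr2* on the plus strand (chr9:124101918-124109140). The RefSeq span of *Ccl4* reaches into *Ccl3* on the opposite strand, but the GENCODE models of both genes do not overlap. The strand setting of the counting is not given in the sources used here, so the split of reads between *Ccl3* and *Ccl4* is uncertain.

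The libraries held 41536788 to 64644293 counts each (median 48173798). *Cd248* followed the genotype labels, at 92.4 to 337 CPM in the 6 Tem1WT/WT libraries and at 0 to 0.248 CPM in the 6 Tem1lacZ/lacZ libraries (CPM, read counts scaled to the library size after TMM normalization). Replicate 1 of the WTTR group stood apart from the other libraries. Its summed CPM of 13 neutrophil markers was 6811, against 288 and 610 in the other WTTR libraries and 63.1 to 530 in the 9 libraries of the other groups. *S100a8* and *S100a9* made up most of the 6811 CPM, at 1296 and 3935 CPM. Of the 9 CC genes, 6 had their highest level in this library (66.7%), against 16.9% of all genes tested. Values without this library are given beside the results it moves.

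With traction in Tem1WT/WT scars, the receptor *Ccr1* and the monocyte chemoattractant *Ccl7* rose. *Ccr1* went from 17.9 ± 4.66 CPM to 187 ± 210 CPM (mean ± SD, n = 3) and *Ccl7* from 16.5 ± 7.11 CPM to 36.9 ± 3.42 CPM (n = 3). *Ccl2*, *Ccl3*, *Ccl4* and *Ccl5* had higher means with traction but did not pass the threshold (adjusted p under 0.05 in edgeR's quasi-likelihood test), and *Ccl8*, *Ccl11* and *Ccr2* had values near or below those of the sham group. Thus 2 of the 9 CC genes (22.2%) passed, against 9.15% of all genes tested. The libraries of the groups did not overlap for the same 2 genes, where this held for 35.7% of all genes tested. At an unadjusted p under 0.05 there were 6 of the 9, against 31.4% of all genes. The median log2 fold change of the 9 genes was 1.20, and that of all genes was −0.01. DESeq2's Wald test called 6 of the 9 genes, adding *Ccl2*, *Ccl3*, *Ccl4* and *Ccl5*, against 22.0% of all genes, and limma-voom with sample weights called the same 2 genes as edgeR, against 3.97% of all genes.

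**Figure D1:**
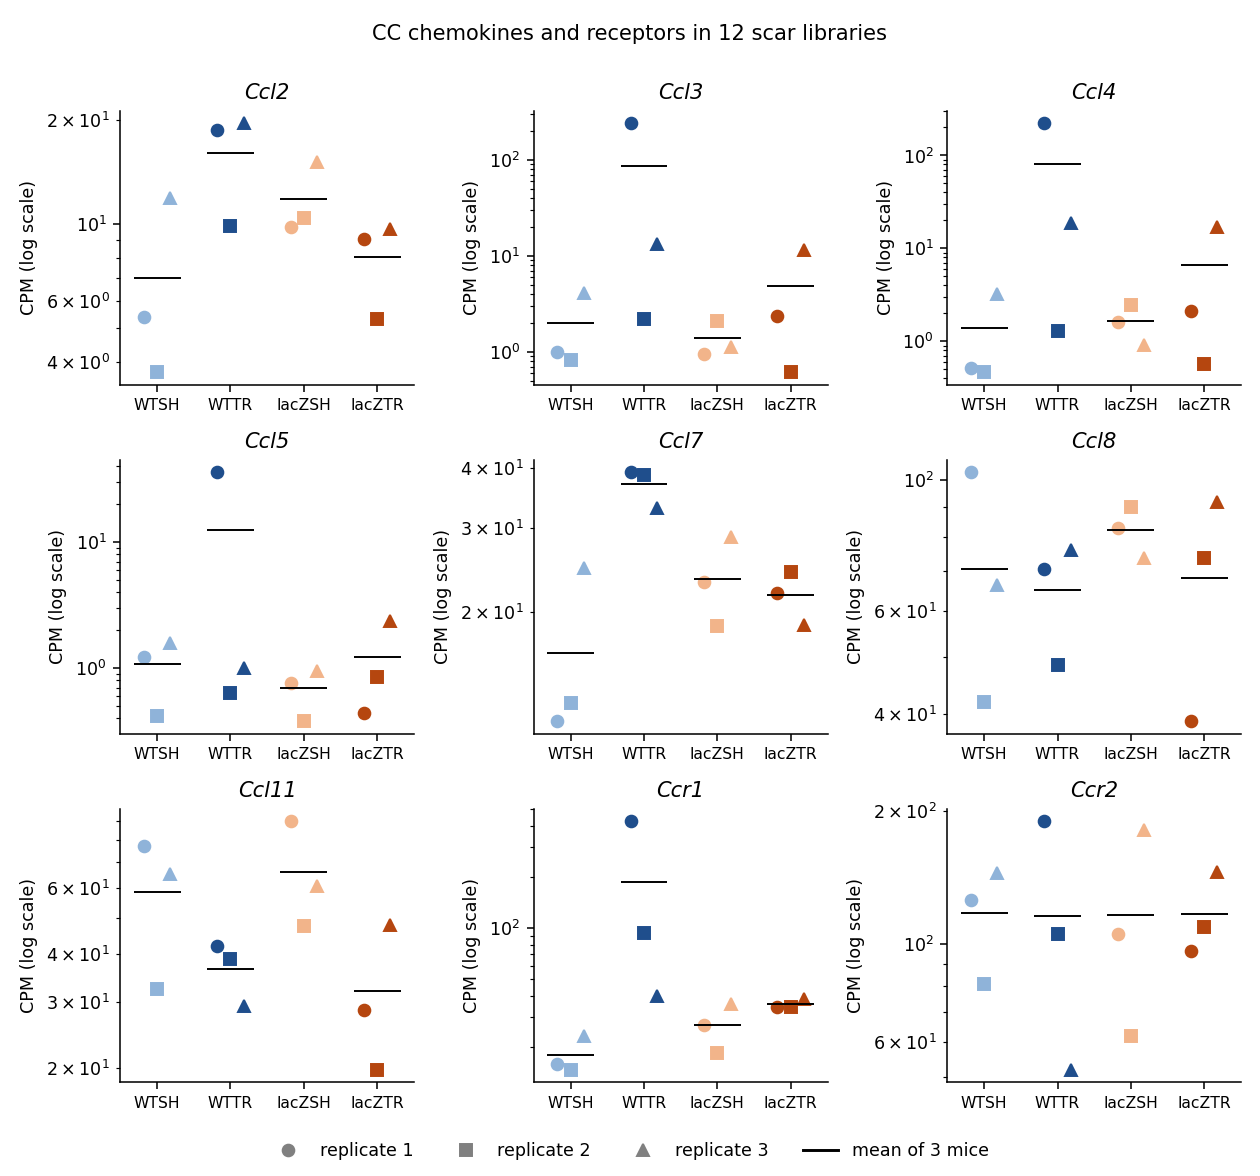
Level of each CC gene in the 12 scar libraries, in CPM on a log axis that differs between panels, by group (WTSH and WTTR, Tem1WT/WT sham and traction; lacZSH and lacZTR, Tem1lacZ/lacZ sham and traction). Symbols mark the replicate number and bars the mean of 3 mice. *Ccl3*, *Ccl4*, *Ccl5* and *Ccr1* are highest in WTTR replicate 1, whereas the 3 WTTR values of *Ccl7* lie close together above all 9 others.

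Among the ligands of the first cluster on chromosome 11, *Ccl7* was at 11.9, 12.9 and 24.7 CPM in the WTSH scars and at 39.2, 38.6 and 33.0 CPM in the WTTR scars. In the lacZSH scars it was at 23.1, 18.7 and 28.7 CPM and in the lacZTR scars at 21.9, 24.3 and 18.9 CPM. All 3 WTTR libraries therefore lay above the other 9, and replicate 1 did not stand out from replicate 2. With traction the log2 fold change in Tem1WT/WT scars was 1.16 (standard error 0.27, 95% interval 0.57 to 1.75, adjusted p = 0.0329 from edgeR). In Tem1lacZ/lacZ scars it was −0.12 (standard error 0.26, 95% interval −0.70 to 0.46, adjusted p = 0.917 from edgeR), with overlapping groups. The call in Tem1WT/WT scars was lost without WTTR replicate 1 (1.10, adjusted p = 0.0641 from edgeR) or WTTR replicate 3 (1.24, adjusted p = 0.0512 from edgeR), and without WTSH replicate 1 or 2 or lacZSH replicate 3 (adjusted p = 0.126, 0.101 and 0.0524 from edgeR). Without either of the named WTSH libraries 0 of all genes passed.

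*Ccl2*, which encodes the main ligand of CCR2, was at 5.38, 3.73 and 11.9 CPM in the WTSH scars and at 18.7, 9.85 and 19.6 CPM in the WTTR scars. It was at 9.83, 10.4 and 15.2 CPM in the lacZSH scars and at 9.04, 5.32 and 9.65 CPM in the lacZTR scars. The Tem1WT/WT groups overlapped by a single library on each side, whereas in Tem1lacZ/lacZ scars all traction values lay below all sham values. The log2 fold change was 1.20 with traction in Tem1WT/WT scars (standard error 0.43, adjusted p = 0.0881 from edgeR) and −0.56 in Tem1lacZ/lacZ scars (standard error 0.42, adjusted p = 0.718 from edgeR). *Ccl2* was the only one of the 9 genes whose groups did not overlap in Tem1lacZ/lacZ scars, where this held for 12.9% of all genes tested. In Tem1WT/WT scars *Ccl2* passed the threshold in edgeR without WTTR replicate 2 (1.47, adjusted p = 0.0486 from edgeR) or WTSH replicate 3 (1.83, adjusted p = 0.0395 from edgeR).

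*Ccl8* and *Ccl11*, the other ligands of this cluster, did not pass the threshold in any of the comparisons in edgeR. *Ccl8* was at 103, 42.0 and 66.5 CPM in the WTSH scars, 70.6, 48.5 and 76.0 CPM in the WTTR scars, 82.9, 90.1 and 73.7 CPM in the lacZSH scars and 38.9, 73.7 and 91.8 CPM in the lacZTR scars. All groups overlapped, and the log2 fold change with traction was −0.12 in Tem1WT/WT scars (95% interval −0.89 to 0.65) and −0.27 in Tem1lacZ/lacZ scars (95% interval −1.04 to 0.50).

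*Ccl11* was at 77.1, 32.5 and 65.4 CPM in the WTSH scars and at 42.0, 38.9 and 29.3 CPM in the WTTR scars. In the lacZSH scars it was at 90.0, 47.5 and 60.6 CPM and in the lacZTR scars at 28.5, 19.8 and 47.9 CPM. Both traction groups had a lower mean than their sham group, and in both genotypes 1 library kept the groups from separating. With traction the log2 fold change was −0.67 in Tem1WT/WT scars (standard error 0.38, adjusted p = 0.252 from edgeR) and −1.04 in Tem1lacZ/lacZ scars (standard error 0.38, adjusted p = 0.598 from edgeR). Averaged over both genotypes, a comparison added after these values were seen, it was −0.85 (standard error 0.27), with an adjusted p of 0.0662 in edgeR and of 0.0223 in DESeq2. In the same averaged comparison *Ccr1* rose by 1.89 (standard error 0.47, adjusted p = 0.0374 from edgeR) and was the 1 CC gene called, against 9.73% of all genes. Without WTTR replicate 1 it rose by 1.16 (adjusted p = 0.0271 from edgeR), again as the 1 CC gene called, against 8.78% of all genes. The call of *Ccr1* was lost without any 1 of the 6 sham libraries and without lacZTR replicate 2 or 3 (adjusted p from 0.0551 to 0.0947 in edgeR). In these fits 0 to 1018 of all genes passed. *Ccl7* was called without WTSH replicate 3 (adjusted p = 0.0273 from edgeR), as were 1018 of 19436 genes. *Ccl3* and *Ccl4* were called without WTTR replicate 2 (adjusted p = 0.0248 and 0.0253 from edgeR), as were 2738 of 19400 genes. *Ccl4* was also called without lacZTR replicate 1 (adjusted p = 0.0481 from edgeR), as were 3422 of 19403 genes. With all libraries DESeq2 called 5 of the 9 genes in the averaged comparison, against 20.7% of all genes. There limma-voom called *Ccr1*, against 20.6% of all genes. Markers of eosinophils, the cells that eotaxin draws, summed to 23.2 to 78.1 CPM in the WTSH, 5.53 to 13.7 CPM in the WTTR, 34.6 to 61.9 CPM in the lacZSH and 6.79 to 34.1 CPM in the lacZTR scars. Of the 8 markers 5 could be tested. *Ear2*, which made up most of the sum in the WTSH scars (38.8 of it as a mean, in CPM), fell with traction in Tem1WT/WT scars (−3.46, adjusted p = 0.0302 from edgeR). It was the 1 marker of these called, against 9.15% of all genes. *Ear2* was at −3.51 without WTTR replicate 1 and did not pass (adjusted p = 0.0552 from edgeR). *Siglecf*, another of these markers, had a higher mean with traction, at 5.11 CPM against 2.30 CPM, and did not pass (1.15, adjusted p = 0.301 from edgeR). The defining marker *Epx* had at most 2 counts in a library and was at 0 in all 3 lacZTR libraries. The part of eosinophils in the values of *Ccl11* was not tested.

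The counts of *Ccl11* and *Ccl7* within a library, a ratio that no normalization of the library changes, were 6.50, 2.51 and 2.65 reads of *Ccl11* per read of *Ccl7* in the WTSH scars and 1.07, 1.01 and 0.887 in the WTTR scars. In Tem1lacZ/lacZ scars the ratio was 3.90, 2.54 and 2.11 with sham and 1.30, 0.817 and 2.54 with traction. It was lower in each WTTR scar than in each WTSH scar, and 1 lacZTR library overlapped the lacZSH range. This ratio was chosen after its values were seen and was not tested. It does not tell a fall of *Ccl11* from a rise of *Ccl7*.

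*Ccl3* and *Ccl4*, which encode the macrophage inflammatory proteins, had the largest fold changes of the 9 genes with traction in Tem1WT/WT scars and the largest standard errors. *Ccl3* was at 0.999, 0.812 and 4.11 CPM in the WTSH scars and at 241, 2.21 and 13.4 CPM in the WTTR scars. In the lacZSH scars it was at 0.952, 2.11 and 1.13 CPM and in the lacZTR scars at 2.34, 0.610 and 11.6 CPM. The WTTR value of replicate 1 was far above all others, replicate 2 lay within the WTSH range, and replicate 3 of the lacZTR group was close to replicate 3 of the WTTR group.

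*Ccl4* was at 0.521, 0.464 and 3.23 CPM in the WTSH scars and at 222, 1.28 and 18.7 CPM in the WTTR scars. It was at 1.59, 2.44 and 0.908 CPM in the lacZSH scars and at 2.09, 0.572 and 17.1 CPM in the lacZTR scars, so its order of libraries was much like that of *Ccl3*. The log2 fold changes with traction in Tem1WT/WT scars were 5.43 for *Ccl3* (standard error 1.64, adjusted p = 0.0591 from edgeR) and 5.83 for *Ccl4* (standard error 1.80, adjusted p = 0.0623 from edgeR). Without WTTR replicate 1 they were 1.95 (standard error 1.10, adjusted p = 0.276 from edgeR) and 2.79 (standard error 1.37, adjusted p = 0.217 from edgeR). In Tem1lacZ/lacZ scars they were 1.80 (95% interval −1.42 to 5.01) and 2.00 (95% interval −1.44 to 5.45), so neither a fall nor a large rise could be told from these mice.

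*Ccl5*, a product of T and NK cells among others, was at 1.22, 0.421 and 1.57 CPM in the WTSH scars and at 36.1, 0.640 and 1.01 CPM in the WTTR scars. In the lacZSH scars it was at 0.762, 0.380 and 0.949 CPM and in the lacZTR scars at 0.444, 0.858 and 2.38 CPM. Only WTTR replicate 1 lay outside the range of 0.380 to 2.38 CPM. The log2 fold change of 3.56 with traction in Tem1WT/WT scars (standard error 1.34, adjusted p = 0.101 from edgeR) turned to −0.39 without that library (standard error 0.73, adjusted p = 0.761 from edgeR). Summed T and NK cell markers ranged from 53.5 to 87.1 CPM in the WTSH, 42.7 to 57.6 CPM in the lacZSH and 40.8 to 54.7 CPM in the lacZTR scars, and were 163, 39.9 and 30.3 CPM in the WTTR scars. The defining marker *Cd3e* was present in every library. The 16 markers had no call in edgeR with all libraries, where 9.15% of all genes were called with traction in Tem1WT/WT scars. With WTTR replicate 1 left out, 15 of the 16 markers were lower with traction (median −1.43) and *Cd3g* fell by 1.98 (adjusted p = 0.0448 from edgeR). *Cd3g* was the 1 of the 16 markers called in that fit, against 1.86% of all genes. Their part in the *Ccl5* value was not tested.

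Of the receptors, *Ccr1* was at 15.8, 14.6 and 23.2 CPM in the WTSH scars and at 427, 93.0 and 40.0 CPM in the WTTR scars. It was at 26.8, 18.4 and 35.7 CPM in the lacZSH scars and at 34.5, 34.2 and 38.1 CPM in the lacZTR scars. All WTTR values lay above all other values, by a wide margin in replicate 1 and by a narrow one in replicate 3, while the lacZTR values were nearly equal. In edgeR the log2 fold change was 3.38 in Tem1WT/WT scars (standard error 0.70, 95% interval 1.83 to 4.94, adjusted p = 0.0310 from edgeR). In Tem1lacZ/lacZ scars it was 0.40 (standard error 0.65, 95% interval −1.02 to 1.82, adjusted p = 0.877 from edgeR). Without WTTR replicate 1 the Tem1WT/WT change was 1.88 (standard error 0.36, adjusted p = 0.0433 from edgeR), and *Ccr1* was then the 1 CC gene called, against 1.86% of all genes. The call was lost without WTSH replicate 1 or 2 or lacZSH replicate 3 (adjusted p = 0.124, 0.0945 and 0.0512 from edgeR). Without WTTR replicate 2, 6 of the 9 genes were called, the 6 that DESeq2 called, against 14.7% of all genes.

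*Ccr2*, the receptor of CCL2 and CCL7, was at 126, 81.1 and 144 CPM in the WTSH scars and at 190, 105 and 51.7 CPM in the WTTR scars. It was at 105, 61.6 and 181 CPM in the lacZSH scars and at 96.2, 109 and 145 CPM in the lacZTR scars. The group means were 117, 116, 116 and 117 CPM and all groups overlapped. The log2 fold change with traction was −0.02 in Tem1WT/WT scars (95% interval −1.04 to 1.01) and 0.01 in Tem1lacZ/lacZ scars (95% interval −1.02 to 1.04). A log2 change of up to 1 in either direction was therefore within what 3 mice a group left possible. Reads of *Ccr1* per read of *Ccr2* were 0.126 to 0.180 in the WTSH, 0.197 to 0.299 in the lacZSH and 0.263 to 0.359 in the lacZTR scars, and 2.25, 0.882 and 0.772 in the WTTR scars. Each WTTR library held a larger share of *Ccr1* than each of the other 9, a ratio again chosen after its values were seen and not tested.

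**Figure D2:**
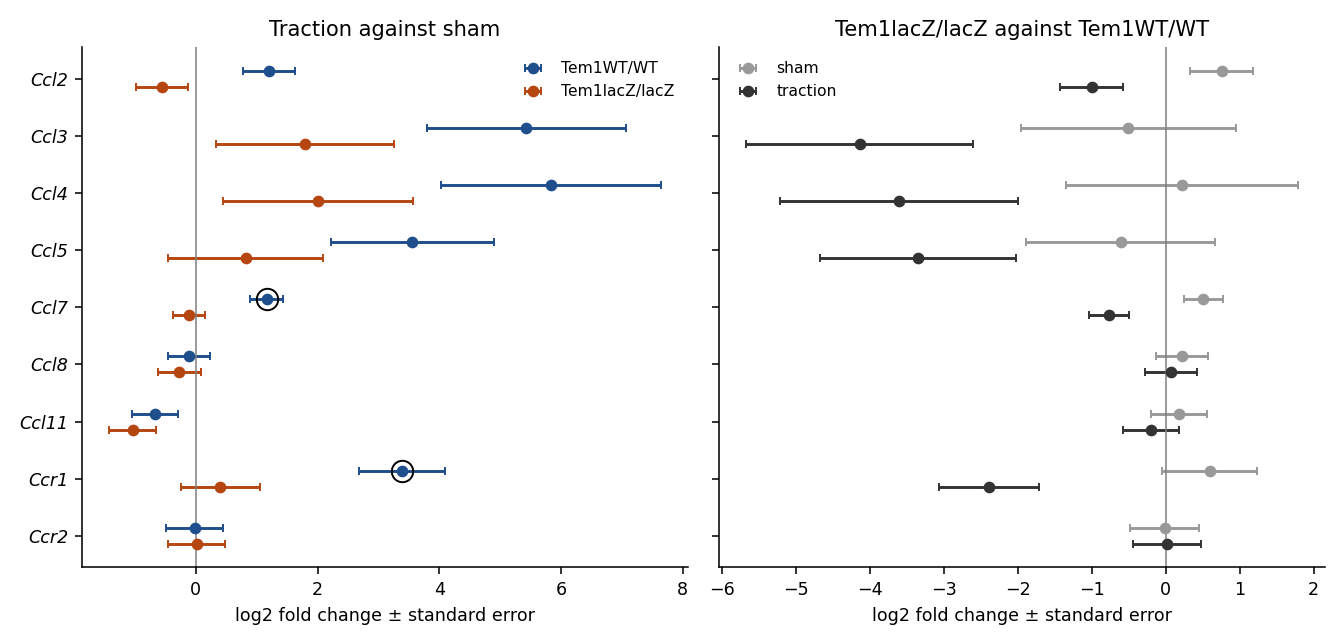
Log2 fold change of each CC gene in edgeR, with its standard error as a bar, for traction against sham within each genotype (left) and for Tem1lacZ/lacZ against Tem1WT/WT within each treatment (right). Circled points, *Ccl7* at 1.16 and *Ccr1* at 3.38, are those with an adjusted p under 0.05 over all genes. The wide bars of *Ccl3*, *Ccl4* and *Ccl5* are standard errors of the fitted change and not the spread between mice.

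Some marker genes of leukocytes and of other cell types also changed with traction in Tem1WT/WT scars, in both directions. The calls below stand against 9.15% of all genes tested with all libraries, and against 1.86% without WTTR replicate 1. Of 13 neutrophil markers 9 could be tested, and *S100a8*, *S100a9*, *Csf3r* and *Cxcr2* rose with traction in Tem1WT/WT scars. *Csf3r* alone was called without WTTR replicate 1 (3.34, adjusted p = 0.0384 from edgeR), and *S100a8*, *S100a9* and *Cxcr2* were at 2.20, 2.21 and 3.18 (adjusted p = 0.0878, 0.0555 and 0.0502 from edgeR). Without that library 10 markers could be tested, 6 of them higher with traction and 4 lower. With all libraries 9 of 9 were higher. The summed neutrophil markers ranged from 63.1 to 98.3 CPM in the WTSH and 172 to 191 CPM in the lacZSH scars. They ranged from 288 to 6811 CPM in the WTTR and 250 to 530 CPM in the lacZTR scars. The sum, though not each marker, separated the groups in both genotypes. In Tem1lacZ/lacZ scars *S100a8* and *S100a9* made up most of the sum, with means of 38.8 and 101 CPM in the lacZSH and 74.0 and 187 CPM in the lacZTR group. In these scars 7 of the 9 tested markers were higher with traction, 2 were lower and 0 were called. The defining marker *Ly6g* was at 0 in all 3 WTSH libraries and had at most 158 counts, in the WTTR group. It had at most 4 counts in a lacZSH library and 6 in a lacZTR library. Of 15 monocyte and macrophage markers, 2 rose, among them *Cd14*, and 0 were called without WTTR replicate 1, where *Cd14* was at 1.69 (adjusted p = 0.0523 from edgeR). The sum of the list was 2836 to 4591 CPM in the WTSH, 2209 to 4278 CPM in the lacZSH, 4519 to 6291 CPM in the WTTR and 2550 to 4842 CPM in the lacZTR scars, with overlap between the groups. Of 10 fibroblast markers 3 rose, and 1 (*Pdgfrb*) without WTTR replicate 1. Of 10 endothelial markers 7 rose, and 4 (*Tie1*, *Emcn*, *Egfl7* and *Esam*) without that library. The endothelial sum was 919 to 1107 CPM in the WTTR scars, against 299 to 744 CPM in the other 9. Of 8 dendritic cell markers 3 fell, of 8 mast cell markers *Hdc* rose and *Ms4a2* fell, and of 10 keratinocyte markers *Epcam* fell. The dendritic cell marker *Xcr1* was the 1 of these still called without WTTR replicate 1, and *Hdc*, *Ms4a2* and *Epcam* had adjusted p-values of 0.0554, 0.0629 and 0.0519 in edgeR. The part of any of these cell types in the chemokine and receptor values was not tested.

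**Figure D3:**
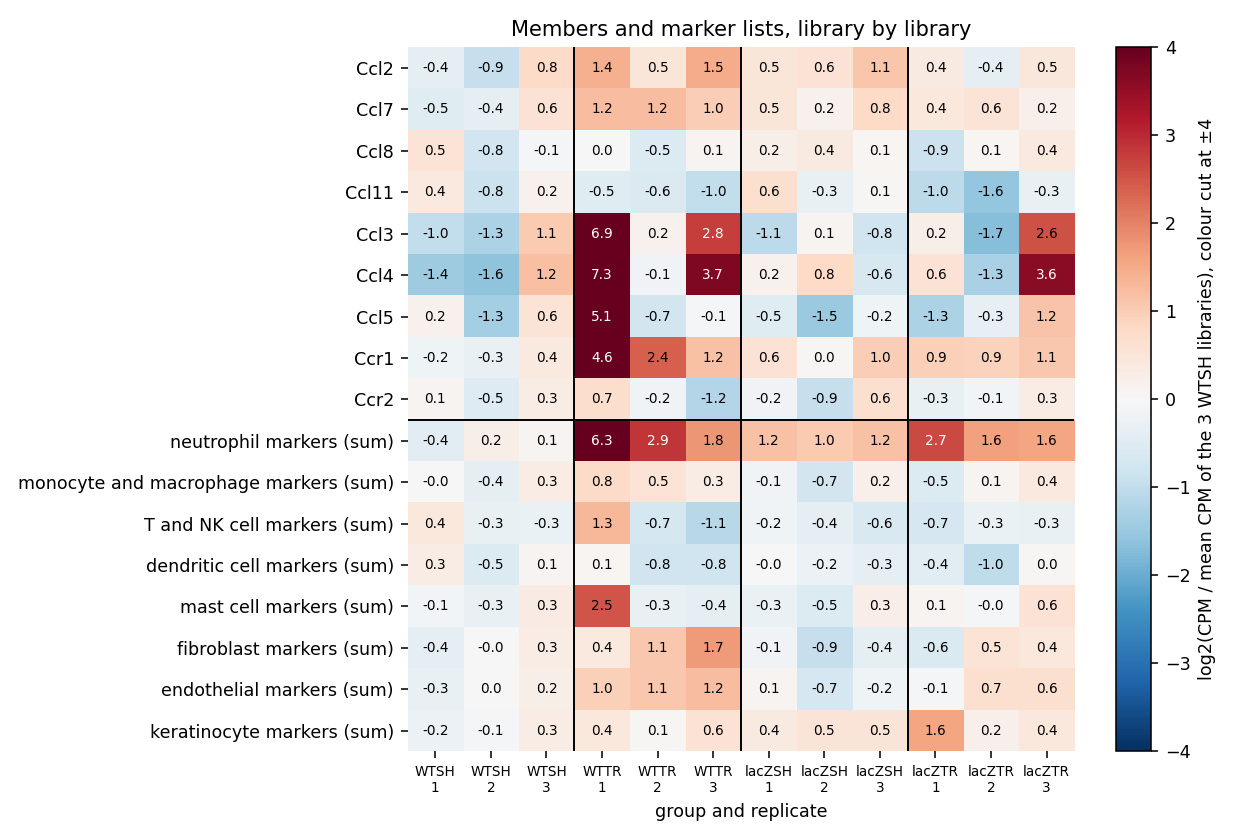
Heat map of the 9 CC genes (top) and of summed marker lists (bottom) in each library, as the log2 ratio of the CPM to the mean of the 3 WTSH libraries, with colour limited to ±4. WTTR replicate 1 is darkest for *Ccl3*, *Ccl4*, *Ccl5*, *Ccr1* and the neutrophil markers. *Ccl7* is raised alike in all 3 WTTR libraries.

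Between the genotypes with traction, 7 of the 9 CC genes were lower in Tem1lacZ/lacZ than in Tem1WT/WT scars and 0 passed the threshold in edgeR, where 0.106% of all genes did. At an unadjusted p under 0.05 there were 6, *Ccl2*, *Ccl3*, *Ccl4*, *Ccl5*, *Ccl7* and *Ccr1*, against 26.1% of all genes. With WTTR replicate 1 left out there were 2, *Ccl7* and *Ccr1*, against 20.4% of all genes. DESeq2 called *Ccl3* and *Ccr1*, against 12.6% of all genes, and limma-voom called 0, against 0.0849%. The log2 fold change of *Ccr1* was −2.39 (standard error 0.68, 95% interval −3.88 to −0.90, adjusted p = 0.0952 from edgeR), −0.87 without WTTR replicate 1 (adjusted p = 0.219 from edgeR) and −2.71 without WTTR replicate 2 (adjusted p = 0.0451 from edgeR). For *Ccl7* it was −0.77 (standard error 0.27, adjusted p = 0.120 from edgeR) and −0.69 without WTTR replicate 1. For *Ccl2* it was −1.0 (standard error 0.43, adjusted p = 0.170 from edgeR) and −0.84 without that library. These 3 were the genes whose libraries did not overlap between the genotypes, where this held for 26.6% of all genes tested. *Ccl3* and *Ccl4* were at −4.14 and −3.61 with all libraries and at −0.64 and −0.54 without WTTR replicate 1, and *Ccl5* turned from −3.35 to 0.62. *Ccl8*, *Ccl11* and *Ccr2* were at 0.07, −0.19 and 0.02. The comparison shares its WTTR libraries with that of traction in Tem1WT/WT scars, so values of opposite sign in both are not independent.

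In the sham groups, 0 of the 9 CC genes passed in edgeR, where 0.0106% of all genes passed. At an unadjusted p under 0.05 there were also 0, against 11.7% of all genes. DESeq2 and limma-voom also called 0 of them, against 0.122% and 0.0053% of all genes. *Ccl2* was at 6.99 ± 4.30 CPM in the WTSH and 11.8 ± 2.93 CPM in the lacZSH scars (mean ± SD, n = 3), a log2 fold change of 0.75 (95% interval −0.18 to 1.69). *Ccl7* was at 16.5 ± 7.11 CPM and 23.5 ± 5.0 CPM, a log2 fold change of 0.51 (95% interval −0.07 to 1.09). Both monocyte chemoattractants thus had a higher mean without *Tem1*, within the spread between mice. The other 7 genes were between −0.61, for *Ccl5*, and 0.59, for *Ccr1*.

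Within Tem1lacZ/lacZ scars, traction moved 0 of the 9 CC genes past the threshold in edgeR, where 0% of all genes passed. At an unadjusted p under 0.05 there was 1, *Ccl11*, against 8.12% of all genes. DESeq2 and limma-voom called 0 of the 9, against 0.122% and 2.31% of all genes. The median log2 fold change of the 9 genes was 0.01, against −0.01 for all genes.

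The genotype by traction interaction, the difference between the traction effects of both genotypes, was negative for 8 of the 9 CC genes, with a median of −1.76 against −0.00 for all genes. It was negative for 7 without WTTR replicate 1, with a median of −0.22. In edgeR 0 passed, where 0% of all genes did, and the smallest adjusted p was 0.548. DESeq2 and limma-voom called 0, against 0.393% and 0% of all genes. Against 8.91% of all genes, 3 had an unadjusted p under 0.05, *Ccl2* at −1.76 (95% interval −3.08 to −0.43), *Ccl7* at −1.28 (95% interval −2.10 to −0.45) and *Ccr1* at −2.98 (95% interval −5.03 to −0.94). Without WTTR replicate 1 they were −1.58, −1.18 and −1.45, still with an unadjusted p under 0.05 as 7.98% of all genes had, and *Ccl3* and *Ccl4* moved from −3.64 and −3.83 to −0.11 and −0.75. A difference between the genotypes in the response to traction was therefore not shown for any of the 9 genes at the adjusted threshold.

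**Figure D4:**
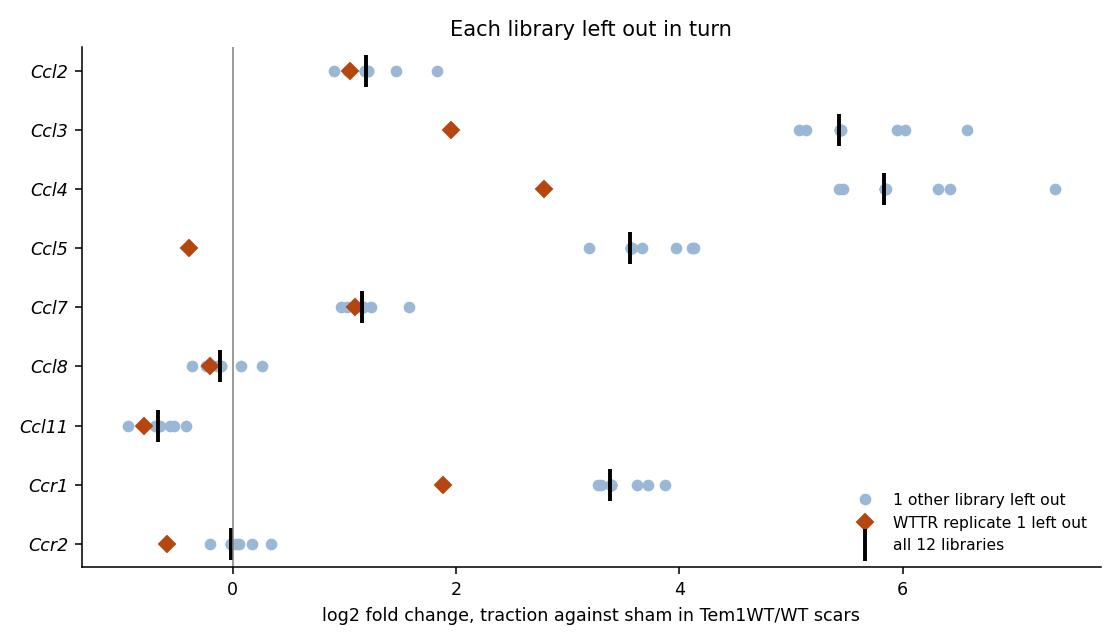
Log2 fold change with traction in Tem1WT/WT scars when 1 library at a time is left out of the edgeR fit. Vertical bars mark the fit of all 12 libraries, diamonds the fit without WTTR replicate 1 and dots the other 11 fits. *Ccl7* and *Ccl2* move little without WTTR replicate 1, *Ccr1* falls to 1.88, and *Ccl5* crosses 0 to −0.39.

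Levels can be compared between genes only per length, here in CPM per kb of the exons that GENCODE vM21 joins for a gene. On this scale *Ccl8* had the highest mean in all 4 groups, 138 ± 60.4 CPM per kb in the WTSH, 127 ± 28.5 in the WTTR, 161 ± 16.1 in the lacZSH and 133 ± 52.6 in the lacZTR scars (mean ± SD, n = 3). *Ccl11* followed in the WTSH, lacZSH and lacZTR groups, at 53.9, 61.0 and 29.6 CPM per kb, and its libraries did not overlap those of *Ccl8* there. *Ccl7* came next in these 3 groups, at 20.6, 29.3 and 27.1 CPM per kb, overlapping *Ccl11* in the WTSH and lacZTR groups but not in the lacZSH group. *Ccl5* had the lowest mean of the 9 in every group, at 0.726 to 13.1 CPM per kb, but overlapped the next gene in all groups except lacZSH. Over the coding transcript its mean in the WTTR group was 23.6 CPM per kb, above that of *Ccl2* at 19.7.

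In the WTTR group, *Ccl4*, *Ccl3* and *Ccr1* stood behind *Ccl8* by their means of 122, 112 and 65.9 CPM per kb, but their ranges overlapped with each other and with *Ccl8*. *Ccl4* ran from 1.94 to 337 CPM per kb and *Ccr1* from 14.1 to 151 CPM per kb. *Ccr2* was at 17.1 to 17.3 CPM per kb in each group over its joined exons of 6760 bases, and at 38.5 to 39.0 over its coding transcript of 2999 bases, which would move its mean above *Ccl7* except in the WTTR group and, in the WTTR and lacZTR groups, above *Ccl11*. In mean CPM per kb the ligand that led the order was thus one that did not pass the threshold with traction.

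Among pairs of the 9 genes, *Ccl3* and *Ccl4* varied together most closely over the 12 libraries (Pearson r = 0.98 of log2 CPM, and 0.96 without WTTR replicate 1). *Ccl7* and *Ccr1* had r = 0.78, and 0.85 without that library, and *Ccl2* and *Ccl7* had 0.77 and 0.72. *Ccl5* and *Ccr1* had 0.79, which came to 0.14 without it. These libraries share groups and depth, and the values are a description only.

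For each CC gene the 3 other genes with the most similar log2 CPM over the 12 libraries were sought among 13638 genes. *Ccl3* was most like *Acod1* (r = 0.99), which encodes the itaconate-producing enzyme of activated macrophages, and *Cxcl2* and *Cxcl3* (both 0.98), which encode neutrophil attractants. *Ccl4* was most like the same 3 genes (r = 0.96 each). *Ccr1* was most like *Snap23* (0.98), a membrane fusion protein gene, *Clec5a* (0.97), a myeloid lectin receptor gene, and *Fam49b* (0.97). *Ccl5* was most like *Sp140*, *Rhoh* and *Csf2ra* (0.98, 0.97 and 0.96), all expressed in leukocytes. For *Ccl3*, *Ccl4* and *Ccr1* these values were 0.90 to 0.97 without WTTR replicate 1, and for *Ccl5* 0.81 to 0.88.

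The other CC genes had different companions. *Ccl7* was most like *Mcfd2*, *Icam2*, an adhesion molecule gene of endothelium, and *Nipsnap3b* (r = 0.92 each), and *Ccl2* like *Lgals9*, *Gm14005* and *Morf4l1-ps1* (0.93 each). *Ccl11* was most like *Gstt1*, *Ccdc69* and *Ugp2* (0.88, 0.88 and 0.87). *Ccl8* was most like *Hyi*, *Nr1d1* and *Mpv17l2* (0.80, 0.77 and 0.77), and without WTTR replicate 1 these values were 0.92, 0.78 and 0.78. *Ccr2* was most like *Mcpt4* (0.91), a mast cell protease gene, a gene listed under a date-like symbol (0.88) and *Mctp1* (0.87).

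Of 14 other CC ligands 11 could be tested, and with traction in Tem1WT/WT scars 0 rose and *Ccl20*, which encodes the ligand of CCR6, fell. This is 1 of 11, near the 9.15% of all genes called. *Ccl20* was at 2.52 to 8.97 CPM in the WTSH and at 0.785 to 1.83 CPM in the WTTR scars, without overlap (log2 fold change −2.10, standard error 0.50, adjusted p = 0.0352 from edgeR). The 3 other ligands with the highest levels did not pass, *Ccl6* at 0.32, *Ccl9* at 0.30 and *Ccl27a*, the keratinocyte chemokine gene, at −2.08 (adjusted p = 0.0533 from edgeR). The median of the 11 ligands was 0.22. Without WTTR replicate 1 it was −1.33 and 0 of them were called, against 1.86% of all genes.

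Of 12 other CC receptors, all tested, *Ccrl2*, which encodes a chemerin-binding atypical receptor, was the 1 that passed. This is near the share of all genes, 9.15%. It was at 3.44 to 4.52 CPM in the WTSH and at 4.70 to 293 CPM in the WTTR scars (log2 fold change 4.69, standard error 1.32, adjusted p = 0.0497 from edgeR), and it was not called without WTTR replicate 1. *Ackr4*, a scavenging receptor gene, was at −1.0 (standard error 0.38, adjusted p = 0.0996 from edgeR). *Ackr1* was at 0.27. The median of the 12 receptors was −0.55, opposite in sign to *Ccr1*.

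Of 24 genes of upstream cytokines and NF-κB or interferon signalling, all tested, 8 rose with traction in Tem1WT/WT scars and 0 fell, with a median log2 fold change of 1.45. In this comparison 9.15% of all genes passed. *Il1b* rose by 6.42 (standard error 1.70, adjusted p = 0.0432 from edgeR), *Il6* by 3.92 (standard error 0.86, adjusted p = 0.0329 from edgeR) and the Toll-like receptor gene *Tlr2* by 1.99 (standard error 0.50, adjusted p = 0.0398 from edgeR). The others were the NF-κB subunit genes *Rela*, *Relb* and *Nfkb2* (1.02, 1.37 and 1.53) and the transcription factor genes *Stat3* and *Cebpb* (1.21 and 2.09). *Stat6*, with *Stat3* and *Cebpb* among the 3 highest of these genes, was at 0.59 (adjusted p = 0.0719 from edgeR). Of the 24 genes 21 were highest in WTTR replicate 1 (87.5%). Without that library the median was 0.31 and *Cebpb* alone was called, against 1.86% of all genes. In the other 4 planned comparisons 0 of the 24 upstream genes, 0 of the 11 other ligands and 0 of the 12 other receptors passed in edgeR. Of all genes 0% to 0.106% passed there.

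Promoter sequence of the RefSeq annotation was at hand for 4 of the 9 genes, *Ccl3*, *Ccl8*, *Ccr1* and *Ccr2*. The 250 bases before the start of *Ccr1*, which rose, and of *Ccl8*, which did not pass the threshold, are shown 5′ to 3′ on the strand of the gene in GRCm38.p6 (chr9:123968693-123968942, minus strand, and chr11:82114935-82115184, plus strand), with motif matches in capitals.
*Ccr1*: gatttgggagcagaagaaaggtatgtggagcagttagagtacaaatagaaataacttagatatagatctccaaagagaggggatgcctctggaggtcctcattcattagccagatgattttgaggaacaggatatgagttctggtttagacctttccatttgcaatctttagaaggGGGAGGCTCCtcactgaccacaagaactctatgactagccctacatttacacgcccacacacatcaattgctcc
*Ccl8*: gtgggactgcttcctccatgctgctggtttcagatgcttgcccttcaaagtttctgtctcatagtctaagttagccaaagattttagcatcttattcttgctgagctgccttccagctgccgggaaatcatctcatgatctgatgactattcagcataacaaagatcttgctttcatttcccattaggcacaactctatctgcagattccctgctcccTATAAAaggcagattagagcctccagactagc
Both strands were searched for a κB motif (GGG and CC with any 5 bases between them), an AP-1 motif (TGANTCA), a C/EBP motif (TTGCNNAA) and a TATA box (TATAAA), none of which overlaps another. The *Ccr1* window held 1 κB match, from −74 to −65 before the start, and the *Ccl8* window 1 TATA box, from −32 to −27. The windows of *Ccl3* and *Ccr2* held no match. Of 32536 promoters of the same length, 46.0% held the κB motif, 6.73% the AP-1 motif, 9.57% the C/EBP motif and 12.3% the TATA box, and a match is a description and not a binding site.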

How the data were processed

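The authors extracted RNA from scars of 12 mice, made stranded poly(A) libraries and sequenced paired reads of 150 bases. Per the submitters' processing notes, fastp 0.20.0, HISAT2 2.1.0 and featureCounts 2.0.0 were used with GRCm38. The deposited values are raw counts per gene and library. The annotation, strand setting and handling of reads with several alignments are not given in the sources used here.

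Groups and replicate numbers came from the sample titles, and same-numbered mice of different groups are different animals. Genes were filtered with filterByExpr, normalized by TMM and fitted in edgeR 4.0.16 (R 4.3.3) by robust quasi-likelihood in 1 model of the 4 groups. Tests were two-sided, with Benjamini-Hochberg adjustment over all 18853 genes and a threshold of 0.05. The edgeR, DESeq2 and limma code was first tested on simulated data. Intervals are at 95%. Alternatives were DESeq2 1.42.0, limma-voom 3.58.1 with sample weights, other normalizations and filters, a replicate block, only the 6 libraries compared, and leaving out each library in turn. Traction averaged over the genotypes, with its own leave-one-out fits, was added after the data were seen. With library totals of 41536788 to 64644293 counts, the lowest count of a CC gene in a library was 16, so that depth limits precision mainly for *Ccl3*, *Ccl4* and *Ccl5*.

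The CC genes and the lists were chosen with earlier results of these data known. Outside the 9 genes, *Cd248*, list genes of CC ligands, receptors and upstream signalling that were called or among the 3 highest of their list, and the 3 genes most like each CC gene (Pearson r of log2 CPM with a prior count of 2, among genes with a mean of at least 1) were named, with called marker genes. A few genes and a sequence that these rules would name are not reported here. The ratios between genes were chosen after their values were seen. Coordinates and promoters came from RefSeq (GRCm38.p6) and coding sequences and lengths from GENCODE vM21. Figures were drawn with matplotlib 3.10.9 in Python 3.11.15. No 2 libraries of a group were copies of each other.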

Additional observations from a re-analysis of the deposited data

How the results depend on the processing

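The log2 fold changes of the 9 CC genes were recomputed under 20 alternatives per comparison (19 for the interaction). Of these values 815 kept their sign and their side of the threshold, 13 passed it newly, 10 no longer passed and 53 changed sign. All 53 had adjusted p-values far above the threshold, and the cause of these changes was not tested. For traction in Tem1WT/WT scars 2 genes were called, against 9.15% of all genes, and with DESeq2 6, against 22%. With only the 6 libraries compared 0 were called, where 0 of 17762 genes passed. With 1 library left out 0 to 6 were called, where 0 to 2861 of all genes were. Between the genotypes with traction 0 were called, against 0.106% of all genes, and with DESeq2 2, against 12.6%. With 1 library left out 0 were called, except 1 without WTTR replicate 2, where 1421 of 19400 genes were called. No other comparison had a call under these alternatives. Upper quartile normalization moved the median of all genes from −0.01 to −0.12 for traction in Tem1WT/WT scars. Between the genotypes with traction it moved this median from 0.01 to 0.14.

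Same-numbered mice of different groups are different animals, so the numbers do not mark repeated samples of a mouse. The correlations of their deviations ran from −0.324 to 0.25. Differently numbered libraries were not correlated, so these values cannot tell whether same-numbered mice shared a batch. With the replicate block 3 CC genes were called for traction in Tem1WT/WT scars, *Ccl2* at 1.28, *Ccl7* and *Ccr1*, against 1467 of 18853 genes. *Ccr2* there was at 0.030, and *Ccl3* between the sham groups at 0.16.

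*Ccr2* also changed sign for traction in Tem1WT/WT scars with DESeq2 size factors (0.0012) and DESeq2 (0.0012), in Tem1lacZ/lacZ scars with upper quartile normalization (−0.028) and limma-voom (−0.026), and between the sham groups with the same pair (0.042 and 0.20). With limma-voom *Ccl5* was at 0.047 between the genotypes with traction, and in the interaction *Ccl5* was at 0.21 and *Ccl8* at 0.062.

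With 1 library left out, traction in Tem1WT/WT scars gave −0.39 to 4.13 for *Ccl5*, −0.36 to 0.26 for *Ccl8* and −0.59 to 0.34 for *Ccr2*. In Tem1lacZ/lacZ scars it gave −0.33 to 2.55 for *Ccl4*, −0.095 to 1.25 for *Ccl5*, −0.23 to 0.080 for *Ccl7*, −0.55 to 0.055 for *Ccl8* and −0.26 to 0.52 for *Ccr2*. Between the genotypes with traction the ranges were −4.26 to 0.62 for *Ccl5*, −0.21 to 0.39 for *Ccl8*, −0.60 to 0.066 for *Ccl11* and −0.33 to 0.60 for *Ccr2*. Between the sham groups they were −0.94 to 0.65 for *Ccl3*, −0.19 to 1.75 for *Ccl4*, −0.016 to 0.61 for *Ccl8*, −0.13 to 0.43 for *Ccl11* and −0.50 to 0.28 for *Ccr2*. For the interaction they were −3.67 to 1.25 for *Ccl5*, −0.54 to 0.18 for *Ccl8* and −0.30 to 0.63 for *Ccr2*.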
